A study of Mus musculus with 20 samples.

Results

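The 10 genes described here encode microtubule-associated proteins (Map1a, Map1b, Map2, Mapt, Map4, Map6 and Map7) and stathmins (Stmn1, Stmn2 and Stmn4). They were chosen by name, with earlier results of these data known, and are 10 of the 19463 genes measured. All 10 were present and had a mean level of at least 10, the minimum for testing.

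Microtubules are polymers of tubulin dimers that give axons and dendrites their shape and serve as tracks for transport. Structural microtubule-associated proteins bind along the polymer and stabilise it, whereas stathmins bind free tubulin dimers and favour disassembly. In brain, MAP2 is known mainly from dendrites and tau, the product of Mapt, mainly from axons, and several members are spliced into forms that differ between the developing and the mature brain. KATNAL2, the protein whose gene was deleted in this study, belongs to the katanin family, whose members include microtubule-severing enzymes.

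Whole brains of male C57BL/6J mice were examined by RNA-Seq in 4 groups of 5 mice, 20 mice in all: WT and Katnal2-KO mice at P21, labelled as 3 weeks of age, and WT and Katnal2-KO mice at P70, labelled as 10 weeks. The KO allele was derived from Katnal2tm1a(EUCOMM)Wtsi by Flp recombination to a floxed allele and then by treating early embryos with HTNC, a cell-permeable Cre recombinase, so the deletion was not restricted to a cell type. In bulk tissue of this kind, fewer cells that express a gene and less of its RNA per cell cannot be told apart. Mice of each group are numbered as replicates 1 to 5 in the labels, and values below are given in that order.

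Values are normalised read counts. Each mouse's values summed to between 27310523 and 28423042, and the spacing of the low values put the depth near 26000000 to 35900000 reads per mouse at P21 and 23300000 to 27800000 at P70. Katnal2 itself was at 99.3 to 115 normalised counts in WT and 78.1 to 96.0 in Katnal2-KO mice at P21, without overlap, and at 101 to 142 in WT and 95.1 to 126 in Katnal2-KO mice at P70, with overlap. The homozygous deletion removes exon 3 and leaves the rest of the gene, so this gene-level value is only a partial check of the labels.

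Replicate 3 of both genotypes at P21 and replicate 5 of both genotypes at P70 stood apart from the other 16 mice, in a way that followed transcript length. In those 4 mice, genes with a longest coding transcript over 8 kb (911 genes) had a median deviation from their group's median of −0.24 (P21 WT), −0.19 (P21 KO), −0.37 (P70 WT) and −0.51 (P70 KO) on the log2 scale, against −0.04 to 0.09 in the other 16 mice. Genes of up to 2 kb (4777 genes) deviated the other way, by 0.12, 0.09, 0.22 and 0.23, against −0.03 to 0.00. The members span that range of lengths, from Stmn1 (1.06 kb) to Map1a and Map1b (both 11.8 kb), and several moved with it. Map1b in the replicate 5 mice at P70 lay 0.45 (WT) and 0.54 (KO) below its group's median. Stmn4 in the same mice lay 0.45 and 0.60 above it. Map1a, which is as long as Map1b, did not move with it at P70 and lay 0.08 and 0.13 above its group's median. The age differences of the members are given with all mice and without both P70 replicate 5 mice. Values without the P21 replicate 3 mice are given only in part, and the related genes named below have values with all mice only. A smooth trend on transcript length was also subtracted from every mouse, with all 20 mice kept. In that length-corrected fit the age difference of Map1b in WT mice was 0.12 (limma adjusted p = 0.0492) and that of Stmn4 in Katnal2-KO mice −0.22 (limma adjusted p = 0.0182). Both passed there, in a fit that called 15.4% of all genes tested in WT and 15.7% in Katnal2-KO mice. Map4 did not pass there in WT (0.12, limma adjusted p = 0.109) or Katnal2-KO mice (0.08, limma adjusted p = 0.283). Neither did Stmn4 in WT mice (−0.18, limma adjusted p = 0.0598).

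**Figure D1:**
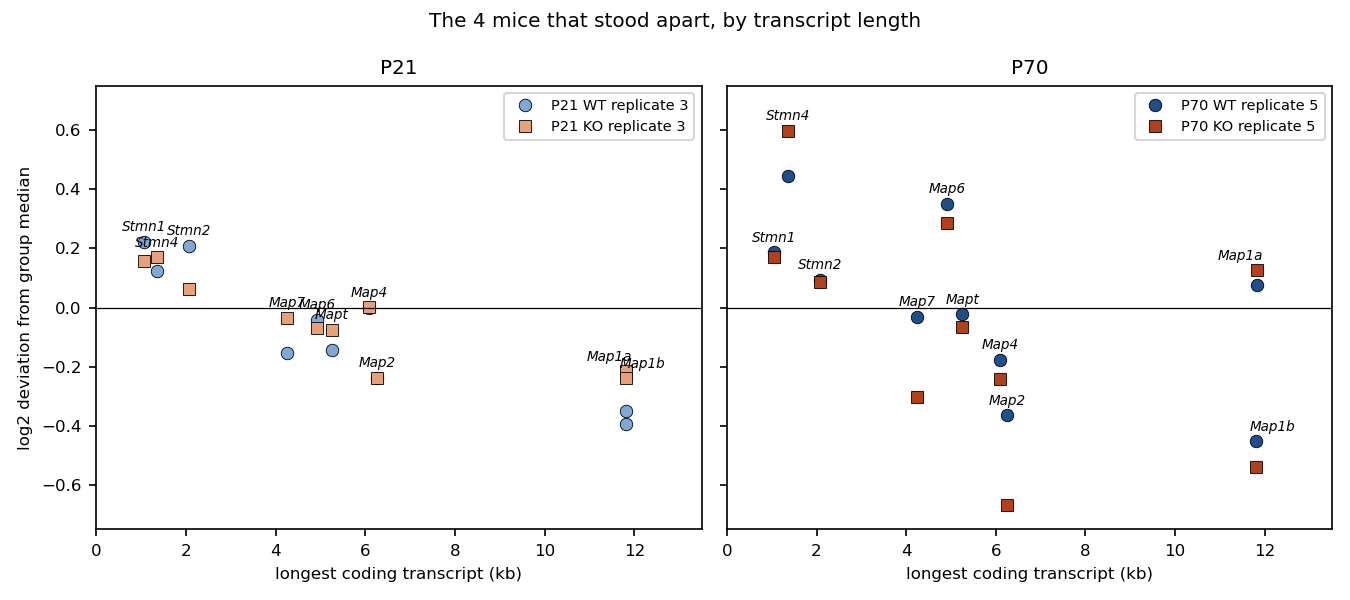
Log2 deviation of each member from its group's median (y axis) against the length of its longest coding transcript in kb (x axis), in the 4 mice that stood apart: replicate 3 at P21 (left) and replicate 5 at P70 (right), WT as circles and KO as squares. At P70 the points run from 0.60 above the median for Stmn4 to 0.67 below it for Map2, and Map6 and Map1a also lie above 0.

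Related members also share stretches of sequence, which bears on how well the estimation of transcript abundance could tell them apart. The longest exact runs shared by 2 members of a family lay in the coding sequences of Stmn1 and Stmn2 (43 bases) and of Map1a and Map1b (26 bases). Both pairs are given from their longest coding transcripts (GENCODE M21, GRCm38), 5′ to 3′, with the shared run in capitals. The Stmn1 stretch covers bases 254 to 312 of the coding sequence and the Stmn2 stretch bases 356 to 414.
Stmn1: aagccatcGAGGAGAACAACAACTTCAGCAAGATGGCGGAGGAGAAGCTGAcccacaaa
Stmn2: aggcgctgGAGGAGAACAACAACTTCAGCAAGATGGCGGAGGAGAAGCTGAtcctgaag
The Map1a stretch covers coding bases 797 to 856 and the Map1b stretch coding bases 749 to 808.
Map1a: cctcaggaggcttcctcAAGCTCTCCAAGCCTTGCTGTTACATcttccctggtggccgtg
Map1b: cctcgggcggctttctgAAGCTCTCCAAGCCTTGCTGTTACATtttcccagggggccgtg
Of the 7 pairs compared, all within a family, Stmn1 and Stmn2 shared the longest run. Stmn4 shared at most 18 bases with either. Map2, Mapt and Map4 shared at most 12 bases pairwise. Of all 31-base words in the transcripts of a member, none occurred in another gene for Mapt and Stmn4. The share was 22.4% for Stmn1, whose words recurred mostly in Gm11223, a gene absent from the table, and 0.665% for Stmn1 when only genes in the table were counted. It was 3.32% for Map7 (mostly Gm48249) and 2.1% for Map1a (mostly Ppip5k1). Of the 10 members Stmn1 had the largest share of such words. This share is not an error of the level, and the effect of shared words on the estimated levels was not tested.

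Levels of the members could be compared with each other only per length, here as normalised counts per kb of the longest coding transcript. In WT mice at P21 the order was Stmn1 (9393 ± 1013 per kb, SD, n = 5), Stmn2 (5549 ± 451), Map2 (4191 ± 326), Stmn4 (3360 ± 187), Map1a (2948 ± 330.2), Mapt (2331 ± 120.0), Map1b (2270.3 ± 242), Map4 (2194 ± 69.8), Map7 (773 ± 43.6) and Map6 (750.0 ± 26.5). Each of the first 4 did not overlap with the next. From Map1a down to Map4 every neighbour overlapped with the next, as did Map7 and Map6. In WT mice at P70 Stmn1 (9564 ± 811) was again first without overlap, but Stmn2 (4342 ± 189) and Map2 (4073 ± 485) now overlapped. From Stmn2 down to Map4 (2399 ± 141 per kb) every neighbour overlapped with the next, but members farther apart need not. The lowest Stmn2 value (4105 per kb) lay above the highest of Map1a (3528.5), Stmn4 (3790.2), Mapt (2941), Map1b (2909.6) and Map4 (2526), and Mapt lay above Map1b in each of the 5 mice. Map6 (769 ± 88.7) and Map7 (723 ± 70.3) were last. These levels assume the longest transcript, and a shorter form would raise the value per kb.

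**Figure D2:**
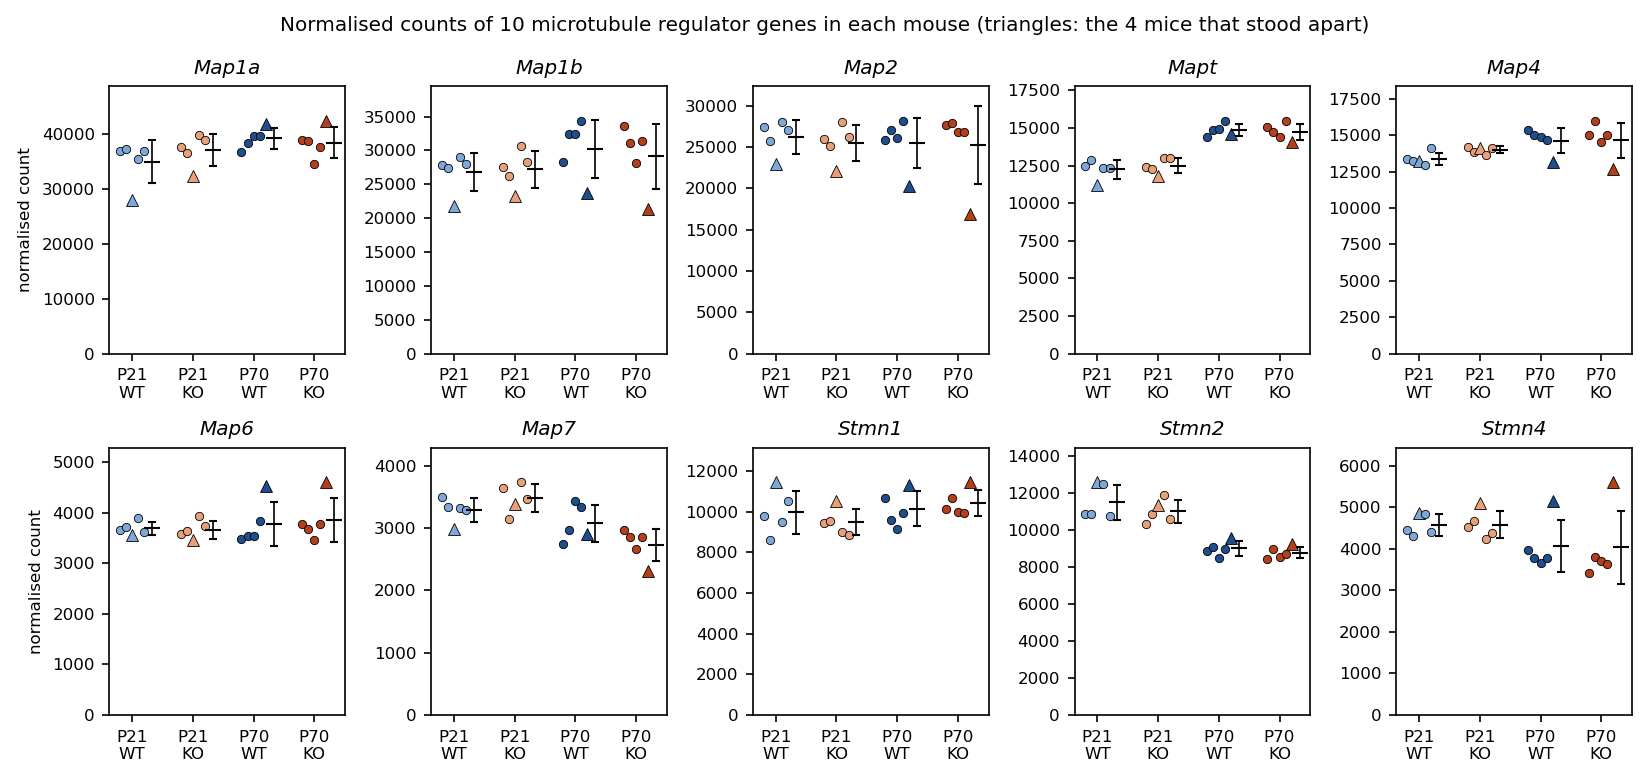
Normalised counts (y axis, from 0) of the 10 members in each of the 20 mice, by group (x axis), with the group mean and SD as a bar beside the points. Triangles are the 4 mice that stood apart. Mapt at P70 (14093 to 15472 in both genotypes) lies above every P21 mouse, and Stmn2 at P70 (8460 to 9589) lies below every P21 mouse.

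The age comparison asked how each member differed between the juvenile and the adult brain, in WT and in Katnal2-KO mice separately. In WT mice Mapt rose and Stmn2 fell from P21 to P70, and the other 8 members did not pass the test. In Katnal2-KO mice Mapt rose and Stmn2 and Map7 fell, and the other 7 did not pass. The test was limma on log2(value + 1) in a single fit of all 20 mice, with Benjamini-Hochberg adjustment over all genes tested and a threshold of 0.05. Against the members' 1 of 10 higher and 1 of 10 lower in WT mice, 5.53% of the 17637 genes tested were higher and 5.62% lower at P70. Against 1 of 10 higher and 2 of 10 lower in Katnal2-KO mice, 5.47% of genes were higher and 6.4% lower. The members' median log2 difference was 0.03 in WT and 0.06 in Katnal2-KO mice, beside 0.00 and −0.01 over all genes tested. The Mapt, Stmn2 and, in Katnal2-KO mice, Map7 calls held in all 34 alternatives, including those without the 4 mice that stood apart.

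Leaving out both replicate 5 mice at P70 added calls. In WT mice 3 of 10 members were then higher (Map1b, Mapt and Map4) and 2 of 10 lower (Stmn2 and Stmn4), beside 11.2% and 9.97% of 17652 genes. In Katnal2-KO mice 2 of 10 were higher (Mapt and Map4) and 3 of 10 lower (Map7, Stmn2 and Stmn4), beside 10.9% and 11.1% of genes. The values without these mice stand under each gene.

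**Figure D3:**
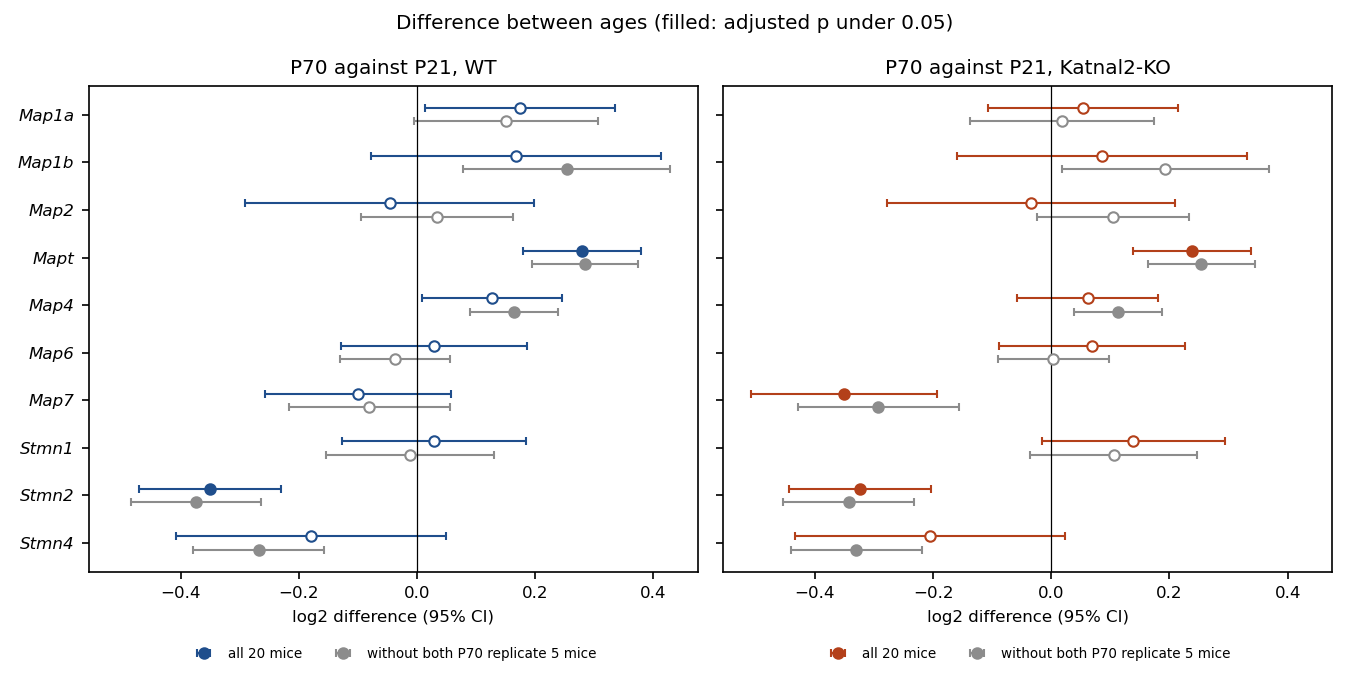
Log2 difference between P70 and P21 (x axis, with the 95% confidence interval from limma) for each member in WT (left) and Katnal2-KO mice (right). Coloured points use all 20 mice and grey points leave out both P70 replicate 5 mice, and filled points have an adjusted p under 0.05. Mapt, Stmn2 and, in Katnal2-KO mice, Map7 are filled in both fits, whereas Map4 and Stmn4 are filled only without the replicate 5 mice, as is Map1b in WT mice.

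Mapt (chromosome 11, 104231390 to 104332090, plus strand, GRCm38) encodes tau, which binds and stabilises axonal microtubules. In WT mice its normalised counts were 12463, 12879, 11189, 12369.5 and 12332.5 at P21 and 14416, 14836.5, 14903, 15451.5 and 14614.5 at P70. In Katnal2-KO mice they were 12421, 12290.2, 11789, 13032 and 12984 at P21 and 15038, 14738, 14374, 15472 and 14092.5 at P70. In both genotypes every P70 mouse lay above every P21 mouse. Mapt rose by 0.28 ± 0.05 (SE) on the log2 scale in WT mice, a 1.21-fold change (limma adjusted p = 0.000573), and 0.24 ± 0.05 in Katnal2-KO mice, a 1.18-fold change (limma adjusted p = 0.00211). These differences were 0.28 and 0.25 without the replicate 5 mice. Mapt was also among the members least moved by those mice, which lay 0.02 (WT) and 0.06 (KO) below their group's median.

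Map2 (chromosome 1, 66175273 to 66442583, plus strand) encodes the main dendritic member of the same family. In WT mice it ranged from 22938 to 28068 normalised counts at P21 and from 20297 to 28145 at P70, and in Katnal2-KO mice from 22053 to 27962 and from 16881 to 27907. The lowest P70 value of each genotype was replicate 5, and the other P70 mice lay between 25884 and 28145 in WT and between 26783 and 27907 in Katnal2-KO mice, within or close to the P21 range. The log2 difference was −0.05 ± 0.12 in WT mice (limma adjusted p = 0.859) and −0.03 ± 0.12 in Katnal2-KO mice (limma adjusted p = 0.898). Its sign turned without the replicate 5 mice, to 0.03 ± 0.06 and 0.10 ± 0.06, and it still did not pass (limma adjusted p = 0.746 and 0.243). The 95% interval was −0.29 to 0.20 in WT and −0.28 to 0.21 in Katnal2-KO mice with all mice, and −0.09 to 0.16 and −0.02 to 0.23 without the replicate 5 mice.

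Map4 (chromosome 9, 109931460 to 110083955, plus strand) encodes the family member known from many tissues outside the nervous system as well as from glia and neurons. In WT mice its normalised counts were 13363, 13189, 13209, 12972 and 14082 at P21 and 15384, 15002, 14866.5, 14638 and 13157 at P70. In Katnal2-KO mice they were 14189.9, 13863, 14129, 13617 and 14106 at P21 and 14974, 15976, 14555, 14994 and 12650.3 at P70. Replicates 1 to 4 at P70 lay above every P21 mouse of the same genotype, and replicate 5 lay within the P21 range in WT mice and below it in Katnal2-KO mice. The log2 difference was 0.13 ± 0.06 in WT (limma adjusted p = 0.168) and 0.06 ± 0.06 in Katnal2-KO mice (limma adjusted p = 0.563). Map4 rose in both when the replicate 5 mice were left out, by 0.16 ± 0.04 (limma adjusted p = 0.00251) and 0.11 ± 0.04 (limma adjusted p = 0.0274).

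Map1a (chromosome 2, 121289600 to 121310832, plus strand) and Map1b (chromosome 13, 99421446 to 99516540, minus strand) encode large neuronal proteins that are each cut into a heavy and a light chain. MAP1B is known from growing axons and MAP1A from the mature nervous system. Map1a ranged from 28002 to 37271 normalised counts in WT mice at P21 and from 36585 to 41724.5 at P70. In Katnal2-KO mice it ranged from 32322 to 39775 and from 34421 to 42309. The groups overlapped in both genotypes, and the lowest P21 value of each was replicate 3. The log2 difference was 0.17 ± 0.08 in WT (limma adjusted p = 0.163) and 0.05 ± 0.08 in Katnal2-KO mice (limma adjusted p = 0.728), and 0.15 ± 0.07 and 0.02 ± 0.07 without the replicate 5 mice. When single mice were left out it ranged from 0.097 to 0.20 in WT and from 0.0064 to 0.092 in Katnal2-KO mice. Map1a did not pass in any of the alternatives run.

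Map1b in WT mice was at 27786, 27445, 21813, 28996 and 28002 normalised counts at P21 and 28268, 32401, 32444, 34356 and 23662 at P70. In Katnal2-KO mice it was at 27517.5, 26257, 23295, 30701.5 and 28296 at P21 and 33637, 31047.5, 28178, 31315.5 and 21359 at P70. Replicate 5 was the lowest P70 mouse in both genotypes, and in Katnal2-KO mice it lay below every P21 mouse as well. With all mice the log2 difference was 0.17 ± 0.12 in WT (limma adjusted p = 0.416) and 0.09 ± 0.12 in Katnal2-KO mice (limma adjusted p = 0.715). Without the replicate 5 mice it was 0.25 ± 0.08 in WT, which passed (limma adjusted p = 0.0374), and 0.19 ± 0.08 in Katnal2-KO mice, which did not (limma adjusted p = 0.109). That fit keeps the P21 replicate 3 mice, the lowest of their groups (21813 in WT and 23295 in KO). Its WT value was the largest over the 34 alternatives, of which the smallest was 0.095, and 5 of them passed. Map1b in WT mice passed without both pairs of mice, but not without the replicate 3 mice alone. Map1b did not fall with age in any fit run, in either genotype.

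Map6 (chromosome 7, 99267447 to 99337137, plus strand) encodes a protein also called STOP, known for protecting microtubules from cold. It ranged from 3559 to 3900.3 normalised counts in WT mice at P21 and from 3480.1 to 4525 at P70, and from 3453 to 3922 and 3459.9 to 4596 in Katnal2-KO mice. The highest P70 value of each genotype was replicate 5, and the other 4 P70 mice lay within or close to the P21 range. The log2 difference was 0.03 ± 0.08 in WT and 0.07 ± 0.08 in Katnal2-KO mice (limma adjusted p = 0.865 and 0.637). Without the replicate 5 mice it was −0.04 ± 0.04 and 0.00 ± 0.04, with 95% intervals of −0.13 to 0.06 and −0.09 to 0.10.

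Map7 (chromosome 10, 20148471 to 20281590, plus strand) encodes ensconsin, which binds microtubules and recruits the motor kinesin-1. In WT mice its normalised counts were 3496, 3343, 2989, 3324 and 3289 at P21 and 2737, 2961, 3431.5, 3343 and 2898 at P70, and the ages overlapped. In Katnal2-KO mice they were 3644, 3151.5, 3385.5, 3731 and 3469 at P21 and 2969, 2849.9, 2671, 2851 and 2312 at P70, and every P70 mouse lay below every P21 mouse. Map7 had a log2 difference of −0.35 ± 0.08 in Katnal2-KO mice, a fold of 0.784 (limma adjusted p = 0.00366), and −0.10 ± 0.08 in WT mice (limma adjusted p = 0.451). The lowest P70 value in Katnal2-KO mice was replicate 5, and without the replicate 5 mice the differences were −0.29 ± 0.06 (limma adjusted p = 0.0028) and −0.08 ± 0.06 (limma adjusted p = 0.414). The difference between the 2 genotypes was itself tested as the age by genotype interaction. It was −0.25 ± 0.11, with a limma adjusted p of 1.00, so a different age change in the 2 genotypes was not established. Map7 was the only member with an unadjusted interaction p under 0.05, beside 1.68% of all genes tested, and 0 members or genes passed after adjustment.

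The stathmins are small proteins that bind tubulin dimers, and their activity is turned down by phosphorylation. Stmn2 (chromosome 3, 8509360 to 8561606, plus strand) encodes the neuronal form SCG10, known from growth cones and regenerating axons. In WT mice its normalised counts were 10848, 10876, 12574, 12473 and 10739.6 at P21 and 8852, 9074, 8509, 8985.5 and 9589 at P70. In Katnal2-KO mice they were 10324, 10849.9, 11339, 11912 and 10614 at P21 and 8459.9, 8985, 8534, 8707 and 9235 at P70. In both genotypes every P70 mouse lay below every P21 mouse. Stmn2 fell by 0.35 ± 0.06 on the log2 scale in WT mice, a fold of 0.784 (limma adjusted p = 0.000368), and by 0.32 ± 0.06 in Katnal2-KO mice, a fold of 0.799 (limma adjusted p = 0.000686). The log2 differences became −0.37 and −0.34 without the replicate 5 mice.

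Stmn4 (chromosome 14, 66344296 to 66361680, plus strand) encodes the neuronal stathmin RB3. In WT mice its normalised counts were 4447, 4314, 4850.2, 4843.5 and 4408 at P21 and 3958, 3788, 3654, 3775 and 5158 at P70. In Katnal2-KO mice they were 4528, 4669, 5098, 4235.5 and 4375 at P21 and 3427, 3809.8, 3694, 3630.5 and 5595 at P70. Replicate 5 was the highest of all mice of its genotype at either age, and the other 4 P70 mice lay below every P21 mouse of the same genotype. With all mice the log2 difference was −0.18 ± 0.11 in WT (limma adjusted p = 0.339) and −0.21 ± 0.11 in Katnal2-KO mice (limma adjusted p = 0.26). Stmn4 fell in both when the replicate 5 mice were left out, by 0.27 ± 0.05 (limma adjusted p = 0.00119) and by 0.33 ± 0.05 (limma adjusted p = 0.000159). Leaving out the P70 KO replicate 5 mouse alone was enough for the call in Katnal2-KO mice (limma adjusted p = 0.0086).

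Stmn1 (chromosome 4, 134468320 to 134473843, plus strand) encodes stathmin itself, the member of the family found in most tissues and abundant in dividing and immature cells. It ranged from 8586 to 11429.8 normalised counts in WT mice at P21 and from 9158 to 11315.5 at P70, and from 8872 to 10524 and 9935 to 11434 in Katnal2-KO mice. The log2 difference was 0.03 ± 0.07 in WT mice (limma adjusted p = 0.865) and 0.14 ± 0.07 in Katnal2-KO mice (limma adjusted p = 0.262). Stmn1 thus gave no call. It differed by −0.01 (95% interval −0.15 to 0.13) in WT and by 0.11 (−0.04 to 0.25) in Katnal2-KO mice when the replicate 5 mice were left out.

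Ratios of 2 members within a mouse do not depend on a scaling factor common to all genes of that mouse. A correction or shift that differs between genes, such as one by transcript length, does not cancel in them. The ratios were described without a test. The log2 ratio of Stmn2 to Stmn1 was 0.15, 0.34, 0.14, 0.40 and 0.03 in the WT mice at P21 and −0.27, −0.08, −0.11, −0.14 and −0.24 at P70. In Katnal2-KO mice it was 0.13, 0.19, 0.11, 0.40 and 0.26 at P21 and −0.26, −0.25, −0.22, −0.19 and −0.31 at P70. The ratio was above 0 in all 10 mice at P21 and below 0 in all 10 at P70, with a mean difference of −0.38 in WT and −0.46 in Katnal2-KO mice. The replicate 3 and replicate 5 mice lay within this pattern. These counts were not divided by transcript length, so a ratio of 0 does not mark equal levels. Per kb, Stmn1 lay above Stmn2 in all 5 mice of each group.

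The log2 ratio of Map2 to Mapt ranged from 0.99 to 1.18 in WT mice at P21 and from 0.47 to 0.87 at P70, without overlap. In Katnal2-KO mice it ranged from 0.90 to 1.101 and from 0.26 to 0.92, and the ages overlapped. The mean difference was −0.33 in WT and −0.27 in Katnal2-KO mice, and −0.25 and −0.15 without the replicate 5 mice, which had the lowest ratio of each genotype. The log2 ratio of Stmn4 to Stmn2 was −1.37 to −1.28 in WT mice at P21 and −1.26 to −0.89 at P70. In Katnal2-KO mice it was −1.49 to −1.15 and −1.30 to −0.72, so the ages overlapped there and not in WT mice. The highest P70 ratio of each genotype was replicate 5, and the mean difference was 0.17 in WT and 0.12 in Katnal2-KO mice with all mice and 0.11 and 0.01 without these. The log2 ratio of Map1a to Map1b separated the replicate 5 mice from all others: it was 0.82 (WT) and 0.99 (KO) in them and 0.20 to 0.37 in the other 8 P70 mice. At P21 it was 0.28 to 0.47 in all 10 mice. The mean difference between ages was 0.01 in WT and −0.03 in Katnal2-KO mice with all mice. Without the replicate 5 mice it was −0.10 and −0.18, and the ages then overlapped in WT but not in Katnal2-KO mice.

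**Figure D4:**
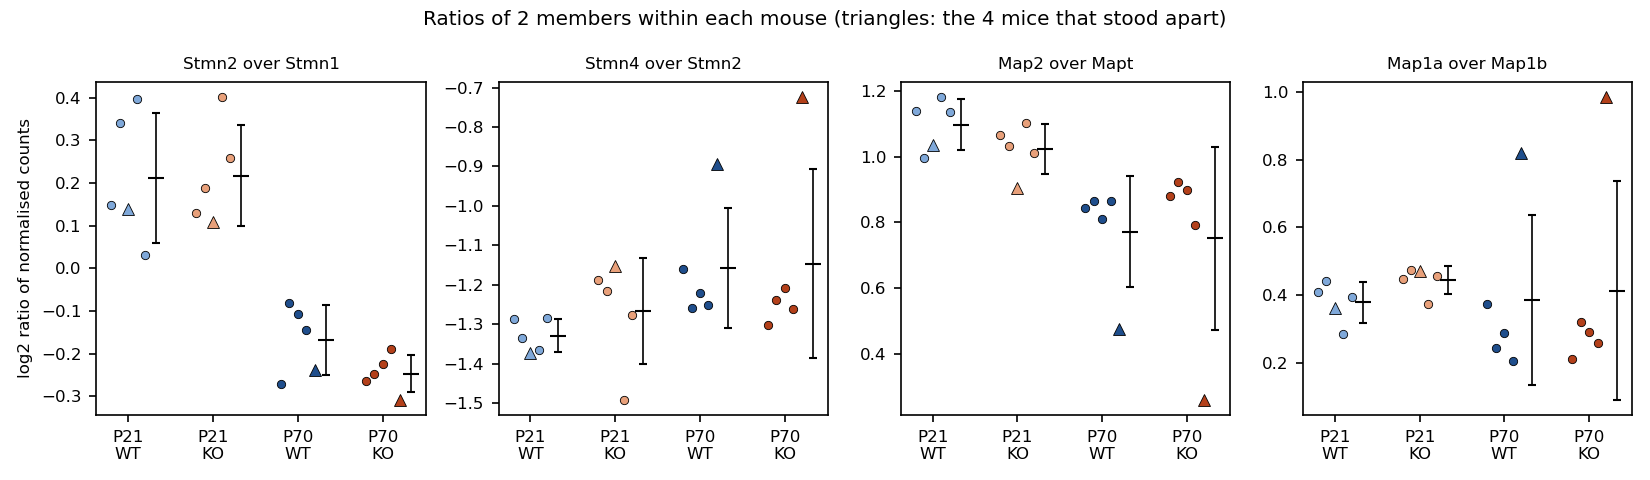
Log2 ratio of 2 members within each mouse (y axis) by group (x axis), with the group mean and SD beside the points and the 4 mice that stood apart as triangles. The Stmn2 to Stmn1 ratio is above 0 in all P21 mice and below 0 in all P70 mice, and the Map1a to Map1b ratio of the replicate 5 mice at P70 (0.82 and 0.99) lies above that of all other mice. Counts are not divided by transcript length, so 0 does not mark equal levels.

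The genotype comparison asked whether loss of Katnal2 was accompanied by a change in these genes at either age, and each age was fitted by itself. No member passed: 0 of 10 had an adjusted p under 0.05 at P21 or at P70, beside 0% of the 17610 and 17613 genes tested. At an unadjusted p under 0.05 the count was also 0 of 10 at both ages, beside 2.44% of all genes at P21 and 1.13% at P70. For 0 of 10 members did the KO and WT values not overlap, beside 0.46% of genes at P21 and 0.193% at P70. The log2 differences of KO against WT ran from −0.07 (Stmn1) to 0.09 (Map1a) at P21 and from −0.17 (Map7) to 0.04 (Stmn1) at P70. Their median was 0.01 at P21 and −0.03 at P70, beside 0.00 and 0.00 over all genes.

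The largest differences were those of Map1a at P21 and Map7 at P70. Map1a averaged 36975 ± 2887 normalised counts (SD, n = 5) in Katnal2-KO and 34859 ± 3904 in WT mice at P21, a log2 difference of 0.09 (exact two-sided permutation p = 0.444). The low value of the WT replicate 3 mouse (28002) entered that difference, which was 0.012 without this mouse and 0.06 without both P21 replicate 3 mice. At P70 the difference was −0.03 (exact permutation p = 0.635). Map7 averaged 2731 ± 257 in Katnal2-KO and 3074 ± 299 in WT mice at P70, a log2 difference of −0.17 (exact two-sided permutation p = 0.103). At P21 it was 0.08 (exact permutation p = 0.198), with Katnal2-KO mice higher on average. A p that misses the threshold does not show equal levels. The widest 95% intervals over the 10 members ran from −0.22 to 0.26 at P21 and from −0.37 to 0.28 at P70 on the log2 scale, that is folds of 0.857 to 1.201 and of 0.775 to 1.21. Without the replicate 5 mice the P70 intervals ran from −0.28 to 0.16.

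**Figure D5:**
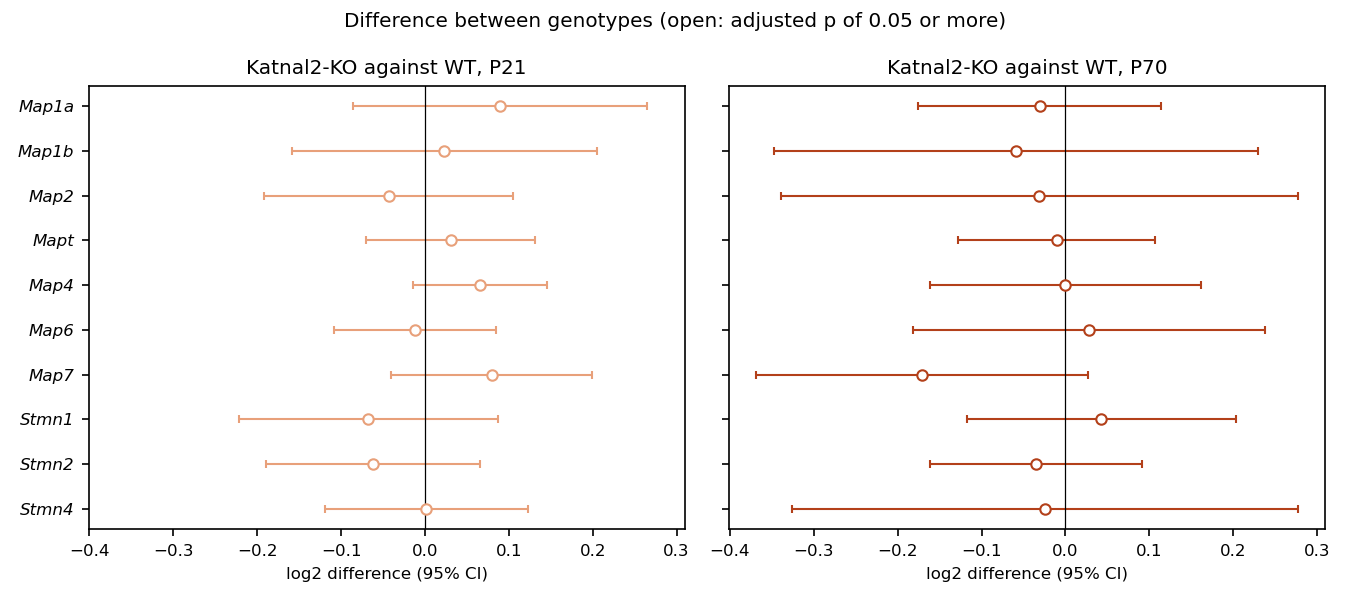
Log2 difference of Katnal2-KO against WT (x axis, with the 95% confidence interval from limma) for each member at P21 (left) and P70 (right), with 5 mice per group. All points are open, since no adjusted p was under 0.05, and every interval includes 0.

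Of 39 other genes of microtubule regulation listed by role, 38 were tested, and Map7d3 was not analysed here. From P21 to P70, 4 were higher and 5 lower in WT mice, and 4 were higher and 6 lower in Katnal2-KO mice, beside 5.53% and 5.62%, and 5.47% and 6.4%, of all genes tested. Without the replicate 5 mice these counts were 5 and 8 in WT and 4 and 8 in Katnal2-KO mice, beside 11.2% and 9.97%, and 10.9% and 11.1%. None of the 38 passed in KO against WT at either age, also at an unadjusted p under 0.05. Among other structural proteins and stathmin, Map6d1, a relative of Map6, fell by 0.48 ± 0.05 in WT and 0.50 ± 0.05 in Katnal2-KO mice (limma adjusted p = 5.86e-06 and 2.65e-06). Map1s, a small relative of Map1a and Map1b, rose by 0.33 ± 0.10 in WT mice (limma adjusted p = 0.0393), and its difference was 0.19 ± 0.10 in Katnal2-KO mice (limma adjusted p = 0.25).

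In the doublecortin family Dcx, which marks migrating and immature neurons, fell by 0.77 ± 0.21 in WT and 0.72 ± 0.21 in Katnal2-KO mice (limma adjusted p = 0.0181 and 0.0263). Its relative Dclk2 fell by 0.20 and 0.19. Among plus-end binding proteins Nav3, a neuron navigator, fell by 0.71 ± 0.14 and 0.57 ± 0.14. Clip2, a linker protein of growing ends, rose by 0.36 ± 0.08 and 0.43 ± 0.08. Macf1, which links microtubules to actin, rose by 0.22 and 0.23, and Mark2, a kinase that phosphorylates tau and other MAPs, by 0.33 and 0.36. All of these passed the test in both genotypes.

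Markers of other cell types moved with age in the same libraries. All 7 mature neuron markers were present, and 1 of 7 was higher at P70 in both genotypes. Their median log2 difference was −0.02 in WT and −0.02 in Katnal2-KO mice. Their summed level, which follows the most abundant markers, was 176255 to 183843 in WT and 173392 to 187849 in Katnal2-KO mice at P21. At P70 it was 191020 to 199757 and 188890 to 201071. Mature oligodendrocyte markers fell from P21 to P70 in 8 of 8 cases in both genotypes, with a median log2 difference of −1.105 in WT and −1.28 in Katnal2-KO mice. Their summed level was 395441 to 445707 in WT and 394893 to 580977 in Katnal2-KO mice at P21, and 167007 to 191110 and 150911 to 198917 at P70. Oligodendrocyte precursor markers fell in 4 of 5 cases in both genotypes, from a summed level of 7560.3 to 9496 in WT and 7213 to 9736 in Katnal2-KO mice at P21 to 4085 to 4977 and 3893 to 4172 at P70. Proliferation markers fell in 3 of 5 cases in both, from 183 to 335 in WT and 231 to 330.5 in Katnal2-KO mice to 124 to 189 and 88.1 to 159. Immature neuron markers fell in 3 of 6 cases in both, and 1 of 6 rose in Katnal2-KO mice. Their summed level was 3913 to 4628 in WT and 3783 to 4523 in Katnal2-KO mice at P21, and 2929.7 to 3780.1 and 2616 to 3650.3 at P70. Blood markers fell in 5 of 5 cases in both, from 24464 to 61276 in WT and 12038 to 30949 in Katnal2-KO mice to 6982 to 9945 and 7287 to 13109.7. Choroid plexus markers rose in 2 of 5 cases in WT and 1 of 5 in Katnal2-KO mice, with summed levels of 12150.4 to 18082.5 and 13870.7 to 26448 at P21 and 12159 to 26742 and 14995 to 26728 at P70. Of 4 endothelial markers 1 fell in Katnal2-KO mice and 0 in WT mice, with summed levels of 6540.0 to 7481 in WT and 6326 to 7533 in Katnal2-KO mice at P21 and 5399 to 7543 and 5201.5 to 7535 at P70. No astrocyte or microglia marker passed in either genotype. No marker of these lists was at 0 in any mouse. In KO against WT no marker passed at either age. At P21 an unadjusted limma p was under 0.05 for 5 of 5 blood markers (median log2 difference −0.75) and 2 of 5 choroid plexus markers (median 0.30). The same held for 1 of 6 immature neuron markers (median −0.06), beside 2.44% of all genes. At P70 it held for 0 markers, with medians of 0.20 for blood and 0.23 for choroid plexus. The part of cell makeup in the age differences of Mapt, Stmn2, Map7 and the other members, and in the comparison of genotypes, was not tested. Age and any difference in how the libraries of the 2 ages were prepared cannot be told apart.

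The genes whose profile over the 20 mice lay closest to each member were found by the root mean square distance of centred log2 values, among 12798 genes with a mean of at least 100. The distances are a description and carry no test. Mapt lay closest to Pom121 (0.04) and Rasgrf1 (0.05), against its own spread of 0.14. Stmn2 lay closest to Pdhb and Cnrip1 (both 0.07, own spread 0.19). Map7 lay closest to Rims2 and Ampd3 (both 0.07, own spread 0.17). Map1a lay closest to Bag6 (0.06) and Adgrl1 (0.07), Map1b to Plxna4 (0.05) and Dnm3 (0.06), and Map2 to Opcml and Mef2a (both 0.05). For Map4 these were Cyb5b (0.03) and Scarb2 (0.04), and for Map6 Copg1 and Pacs1 (both 0.06). For Stmn1 they were Mrfap1 (0.04) and Nudt3 (0.05), and for Stmn4 Dctn5 and Zcchc17 (both 0.06). The nearest genes of the stathmins had longest coding transcripts of 1.51 to 2.22 kb, beside 1.06 to 2.07 kb for the stathmins themselves. Those of Map1b had 12.9 and 7.52 kb and those of Map1a 3.86 and 8.18 kb, although both members are of 11.8 kb.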

How the data were processed

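Poly-A RNA from 20 whole brains (5 mice per group) was sequenced with an unstranded kit. The authors quantified transcripts with Salmon 1.1.0 (GRCm38, corrected for GC bias) and passed them through tximport to DESeq2. The deposited signal values are the resulting normalized counts of 19463 genes. The submitters' processing notes name DESeq2 1.26.0 and R 3.6.2. Of the gene IDs, 19447 matched a symbol in GENCODE M21. Whole reads could not be recovered from the values, so no count test was run and depths are approximate.

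Log2(value + 1) was fitted with limma 3.58.1 (lmFit, eBayes with an intensity trend) in R 4.3.3 on genes averaging 10 or more, with Benjamini-Hochberg adjusted p-values across all genes tested and a threshold of 0.05. Fold changes are on that scale. Ages and the interaction used all 20 mice in 1 fit, and KO against WT used the 10 mice of each age. Single members were also tested by an exact two-sided permutation over mice. The procedure was tested on simulated data, drawn independently for each gene and mouse. These lacked the shift by transcript length seen in 4 mice, so they do not show how the procedure handles it. The text names the 10 members, Katnal2, in each list of related genes the called gene with the largest and the smallest age difference in WT mice, and the 2 genes nearest each member. Members and lists were chosen with earlier results of these data known. Alternatives were no trend, quantile normalization, scaling to each mouse's sum, a pseudocount of 10, no filter, a minimum mean of 100, a threshold of 0.01, other samples in the fit, the replicate number as a block, array weights, each mouse left out, and both P70 replicate 5 mice left out. Leaving out both P21 replicate 3 mice and correcting for transcript length were chosen after seeing the data. Strand was not kept, so reads of overlapping antisense genes cannot be told apart.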

Additional observations from a re-analysis of the deposited data

Results flagged for a closer look

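In 7 of the 40 groups of 5 values (10 members in 4 groups) 1 mouse lay farther from the others than Dixon's critical ratio of 0.71 allows, where chance gives about 1 in 20. All 7 were in the 4 mice that stood apart. The share of all genes past this ratio was not computed, and the 40 groups come from the same 20 mice. The count is therefore not shown to be particular to the members. In replicate 3 of the P21 WT group, Map1a (28002) and Map1b (21813 normalised counts) were the lowest of their group, next to 35322.5 and 27445. In replicate 5 at P70, Map2 was the lowest in WT (20297, next to 25884) and in Katnal2-KO mice (16881, next to 26783). In the same mice Stmn4 was the highest in WT (5158, next to 3958) and in Katnal2-KO mice (5595, next to 3809.8), and Map6 was the highest in Katnal2-KO mice (4596, next to 3770.0).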

How the results depend on the processing

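Of 805 recomputed member differences, 765 kept their direction and their side of the threshold, 20 changed sign and 20 passed the threshold only in the alternative. Each difference that changed sign missed the threshold in both fits. In WT mice the age difference of Map6 became −0.033 with array weights, −0.038 without both P70 replicate 5 mice and −0.050 without those and both P21 replicate 3 mice. Without the replicate 5 mice that of Map2 became 0.033 and that of Stmn1 −0.012. In Katnal2-KO mice Map2 became 0.065 with array weights, 0.10 without the replicate 5 mice and 0.054 without both pairs, Map1a became −0.0092 with array weights and −0.030 without both pairs, and Map6 −0.017 without both pairs. The KO against WT difference of Map1a at P70 became 0.029 with the length correction, with or without the replicate block.

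When single mice were left out, the age differences in WT mice ranged from −0.023 to 0.080 for Stmn1, −0.094 to 0.033 for Map2 and −0.038 to 0.057 for Map6, that of Map2 in Katnal2-KO mice from −0.085 to 0.10, and that of Map1a in KO against WT at P70 from −0.067 to 0.0075. Members called were 2 each time in WT mice and ranged from 3 to 4 in Katnal2-KO mice, and genes called from 1386 to 2821 and from 1447 to 2578. Genes called in KO against WT at P21 ranged from 0 to 1.

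Members called by age were 5 in either genotype with array weights, without the replicate 5 mice, and without both pairs. Genes called by age, 1966 in WT and 2094 in Katnal2-KO mice with all mice, became 3855 and 4439, 3731 and 3879, and 3599 and 3865 in those settings. They became 998 and 1018 at a threshold of 0.01, and 3079 in WT mice with the length correction and the replicate block. In KO against WT, where no gene was called, 1 gene was called at P21 with array weights, without both replicate 3 mice, without both pairs and without the WT replicate 3 mouse (Spats2l), and 1 without the KO replicate 4 mouse (Lenep). At P70 1 gene was called without both replicate 5 mice and without both pairs (Gm28438). None is a member, and all were named after their values were seen.

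Same-numbered KO and WT mice are different animals. Their deviations correlated at 0.01 to 0.26 at P21 and 0.06 to 0.71 at P70, and not all were above 0.1, so the numbers were not taken as pairs. In 5 of 10 pairs the mouse correlated best with its own number. The highest values were those of replicate 3 at P21 (0.26) and replicate 5 at P70 (0.71), so some numbers did carry a shared shift. With the replicate block the members called stayed at 2 in WT, 3 in Katnal2-KO mice and 0 in the other comparisons, and genes called by age became 2290 and 2411. In KO against WT, genes at an unadjusted limma p under 0.05 rose with it from 429 to 732 at P21 and from 199 to 610 at P70. In the age and interaction fits the block gave same-numbered mice of both ages a shared term. The length shift lay in replicate 3 at P21 and replicate 5 at P70, so such a term could not take it up fully. The cause of these shifts was not tested. With 5 mice per group the precision of small differences is limited, as the intervals show, and gene-level values cannot show a change in splice forms.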
